A study of Mus musculus with 19 samples.

Results

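Potassium channel genes were followed across cells and tumors of the mouse cerebellum. They were chosen by name, as the genes whose symbol in the array's annotation begins with Kcn, which gave 83 genes among the 18193 that had a probe set with a single gene symbol. A gene was read from the brightest of its probe sets on average. Of the 83 genes, 43 reached the median of the array on at least 3 arrays and were tested among 12148 genes in all, so a gene high in 1 group alone had to pass through that group. The 43 tested genes were 17 pore-forming subunits of voltage-gated channels, 8 accessory subunits of such channels, 6 inward rectifiers, 4 leak channels of the K2P class, 6 genes of calcium- or sodium-activated channels and 2 non-coding RNAs that carry the prefix.

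The study hybridised 19 Affymetrix Mouse430+2 arrays, in 5 groups, with total RNA taken directly from the cerebellum of C57BL/6 mice. The progenitors were 4 arrays of NEPs (progenitors that express Nestin, an intermediate filament protein of neural stem and progenitor cells), 4 arrays of GNPs (progenitors positive for Math1, the transcription factor of granule cell precursors also called Atoh1) and 3 arrays of NSCs (neural stem cells, CD133-positive and negative for lineage markers). The tumors were 4 arrays of cells from Nestin-CreERT2/Ptch1C/C mice (NEP tumor) and 4 arrays from Math1-CreERT2/Ptch1C/C mice (GNP tumor), in which an inducible Cre recombinase under a Nestin or Math1 driver acts on Ptch1, the receptor that restrains Hedgehog signalling. The labels give no Ptch1 genotype for the progenitor mice, no inducing treatment, no age or sex, no statement on pooled animals, and do not say whether arrays of 1 group came from separate animals. Every p-value below therefore measures the spread between these arrays, which may be technical.

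Potassium channels let potassium ions leave or enter a cell and so set its resting potential, shape its action potentials and clear potassium from the space around neurons. Voltage-gated (Kv) channels open when a neuron depolarises. Inward rectifiers (Kir) hold the resting potential, and in astrocytes and Bergmann glia, the radial glia of the cerebellar cortex, they take up the potassium that active neurons release. K2P channels carry a steady leak, and the calcium-activated channels couple calcium entry to membrane potential. In the cerebellum these genes are best known from granule neurons, Purkinje cells and Bergmann glia.

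The values are log2 probe set signals, and each difference subtracts the second group named from the first, from 1 limma fit over all 19 arrays with its standard error (SE). A gene was called at a Benjamini-Hochberg adjusted p below 0.05 over the 12148 genes. The array medians lay between 2.44 and 2.57, and where a group mean is under the median the difference is one of array signal near background. The array titles carry a number that the labels do not explain, and it is the same for NEPs and GNPs (first title set) and the same for NSCs and tumors (second title set). The comparison of the progenitors and that of the tumors each lie within 1 set. Every comparison with NSCs, and of a tumor with its progenitor, crosses the sets, and there set and group cannot be told apart.

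Markers bore out the label for Math1 in GNPs, where Atoh1 was 8.85 ± 0.09 (SD, n = 4), and for Nestin in NEPs, where Nes was 5.87 ± 0.19 (n = 4) against 3.49 ± 0.35 (n = 4) in GNPs. NSC arrays carried Atoh1 at 8.93 ± 0.01 (n = 3), a level also seen in GNPs, and Prom1, which encodes CD133, at 8.08 ± 0.11 (n = 3), against 8.61 ± 0.30 (n = 4) in NEPs. NEP arrays 1 and 2 stood apart from NEP arrays 3 and 4. The median of 9 microglia and macrophage markers was 9.78 and 9.79 on the former and 4.58 and 2.49 on the latter, and that of 8 pericyte, fibroblast and meningeal markers was 9.79 and 9.87 against 7.22 and 5.93. In GNPs the same lists ranged from 1.71 to 2.08 and from 2.74 to 3.18, with 8 of 9 and 4 of 8 markers under the array median. On NSC arrays they ranged from 4.25 to 4.75 and from 8.19 to 8.31. The median of 9 differentiating neuron markers was 6.59 and 6.42 on NEP arrays 1 and 2, and higher on arrays 3 and 4, at 8.81 and 8.13. NEP tumor arrays 1 and 2 likewise differed from arrays 3 and 4, at 6.99 and 6.96 against 8.28 and 7.78 for the median of 8 Bergmann glia and astrocyte markers. Ptch1 itself read 11.39 to 11.59 in NEP tumors and 11.18 to 11.24 in GNP tumors, against 10.27 to 10.90 in NEPs and 10.17 to 10.38 in GNPs. Whether its probe set lies in the deleted part is not given, so it does not check the deletion.

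NEPs and GNPs differed in most of the potassium channel genes tested, in both directions. The glial inward rectifier Kcnj10 and the calcium-activated channel Kcnn2 stood far higher in NEPs, while Kcns2, Kcnc1 and the G protein-gated rectifiers Kcnj3 and Kcnj6 stood far lower. In all, 15 members were called higher in NEPs and 18 lower, with 10 not called. The background over all 12148 genes was 29.6% higher and 39.9% lower, so the share of members called, 15 and 18 of 43, lay near the background. The members' median difference was -0.09, against -0.11 over all genes. Among the members called, 8 were higher and 12 lower by at least 2-fold, against 1909 higher and 954 lower among all 12148 genes. With NEP arrays 1 and 2 left out, 30 members were called and 28 of these were among the 33, in the same direction.

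**Figure D1:**
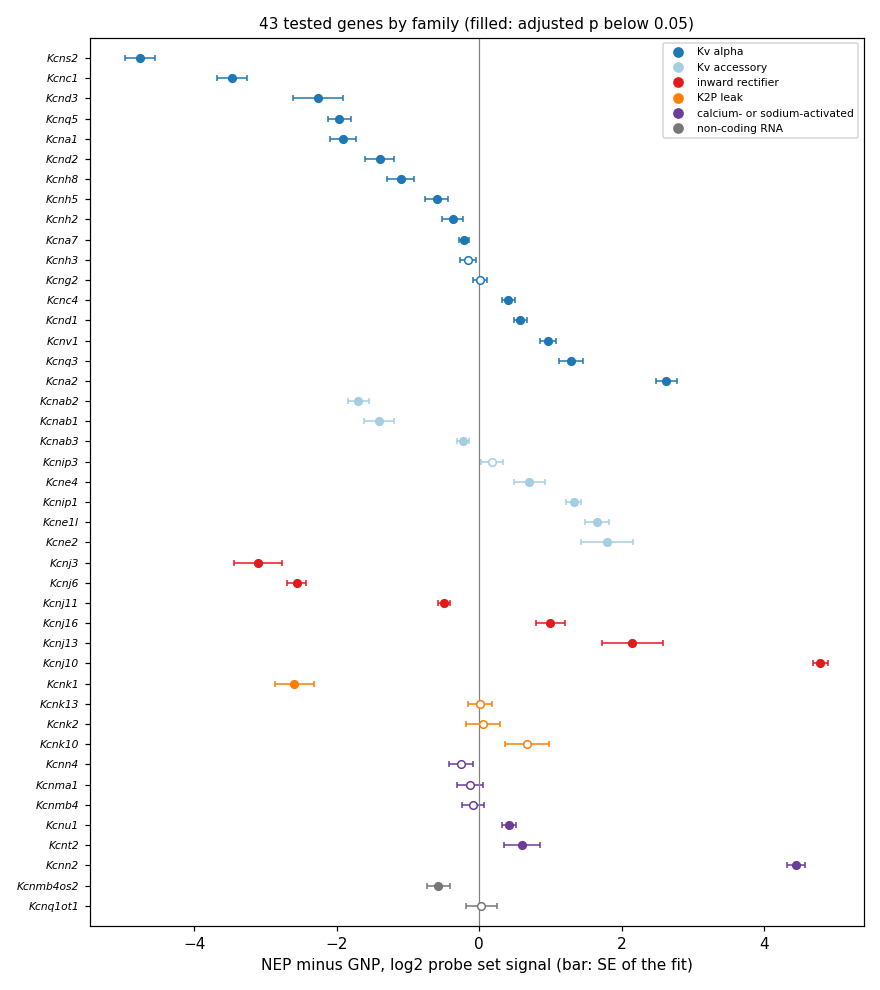
Difference between NEPs and GNPs for each of the 43 tested potassium channel genes, ordered within families, in log2 probe set signal; points are the fitted differences, bars their SE, and filled points are called at adjusted p below 0.05. Of the 17 Kv pore-forming subunits 10 are called lower and 5 higher in NEPs, and Kcnj10 (4.79) and Kcnn2 (4.45) lie farthest right.

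To show the start regions of members at the ends of this range, 300 bases around the transcription start (250 before to 50 after) are printed for 2 genes higher in NEPs, Kcnj10 and Kcna2, and 2 lower, Kcnc1 and Kcnj3, from RefSeq on GRCm38.p6. They lie on the plus strand at chr1:172340960-172341259, chr3:107101317-107101616, chr7:46396218-46396517 and chr2:55435720-55436019. Capitals mark the E-box CAGCTG, a motif of basic helix-loop-helix transcription factors.
Kcnj10: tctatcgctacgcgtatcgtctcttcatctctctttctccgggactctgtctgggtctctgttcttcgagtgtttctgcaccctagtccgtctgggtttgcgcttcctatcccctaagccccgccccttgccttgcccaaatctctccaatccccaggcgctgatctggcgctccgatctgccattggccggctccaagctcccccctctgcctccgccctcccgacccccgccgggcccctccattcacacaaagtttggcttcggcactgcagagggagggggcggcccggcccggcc
Kcna2: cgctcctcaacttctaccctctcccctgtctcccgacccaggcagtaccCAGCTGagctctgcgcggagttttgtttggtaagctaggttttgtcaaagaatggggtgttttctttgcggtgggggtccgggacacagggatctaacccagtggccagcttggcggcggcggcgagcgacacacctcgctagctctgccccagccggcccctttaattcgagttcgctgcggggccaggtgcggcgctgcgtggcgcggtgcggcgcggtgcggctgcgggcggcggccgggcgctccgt
Kcnc1: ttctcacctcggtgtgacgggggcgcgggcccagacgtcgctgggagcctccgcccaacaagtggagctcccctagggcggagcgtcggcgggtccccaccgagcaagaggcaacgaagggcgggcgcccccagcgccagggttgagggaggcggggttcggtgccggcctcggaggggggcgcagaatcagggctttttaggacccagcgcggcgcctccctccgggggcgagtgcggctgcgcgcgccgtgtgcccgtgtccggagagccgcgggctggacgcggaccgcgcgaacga
Kcnj3: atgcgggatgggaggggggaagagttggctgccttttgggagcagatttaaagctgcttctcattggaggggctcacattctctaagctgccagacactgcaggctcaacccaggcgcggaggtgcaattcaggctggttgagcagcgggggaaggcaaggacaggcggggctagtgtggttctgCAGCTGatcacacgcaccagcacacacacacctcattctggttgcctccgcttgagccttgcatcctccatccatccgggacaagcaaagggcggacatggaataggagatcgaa
The Kcnc1 start region holds 41 CpG dinucleotides at 74.7% GC, and that of Kcnj3 holds 10 at 57.7%. Kcnj10 and Kcna2 hold 21 and 31.

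Promoter sequences of this kind were at hand for 32 of the 43 tested members. Their median GC content was 61%, with a median of 11 CpG, against 52.7% and 7 over all 27025 promoters in the table. CAGCTG occurred in 9 of the 32 (28.1%), against 16.1% of all promoters. It occurred in 6 of the 10 promoters of members higher in NEPs, those of Kcna2, Kcne1l, Kcne4, Kcnip1, Kcnj13 and Kcnj16, and in 2 of the 14 of members lower, Kcnd3 and Kcnj3. The Gli core ACCACCC was found in 2 of 32 (4.54% of all promoters), the Sox core ACAATG in 3 of 32 (12.8%), and the left part of the RE1 element, TTCAGCACC, in 0 of 32 (0.359%). All were searched on both strands, none is contained in another, and a match is a description of letters only.

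All 6 inward rectifiers tested were called, 3 of 6 higher and 3 lower in NEPs, where 29.6% and 39.9% of all genes were. Kcnj10 encodes Kir4.1, the main potassium uptake channel of astrocytes and Bergmann glia. Its signal was 6.79, 6.68, 6.38 and 6.85 on NEP arrays 1 to 4 and 1.72, 2.22, 1.79 and 1.80 on GNP arrays 1 to 4. All NEP arrays were above all GNP arrays, and the GNP mean was under the array median. The difference was 4.79 (SE 0.11, adjusted p = 1.00e-15), or 27.7-fold in array signal. NSC arrays read 3.97, 4.09 and 3.94, NEP tumor arrays 4.26, 4.09, 4.13 and 4.30 and GNP tumor arrays 5.0, 5.11, 4.95 and 5.10. Both tumor groups and the NSCs thus lay between the NEPs and the GNPs, and GNP tumors lay above NEP tumors without overlap (log2 difference -0.85, SE 0.11, adjusted p = 5.68e-05). The levels ran NEP, GNP tumor, NEP tumor, NSC and GNP from high to low, and the ranges of NEP tumors (4.09 to 4.30) and NSCs (3.94 to 4.09) adjoin. Kcnj10 was 2.68 higher in NEPs than in NSCs, differed by -2.11 between GNPs and NSCs, by -2.48 between NEP tumors and NEPs and by 3.16 between GNP tumors and GNPs, and all 4 of these were called.

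Bergmann glia and astrocyte markers were also higher in NEPs. Of the 8 markers listed, all 8 were tested and called higher in NEPs than in GNPs, and their median ranged over arrays from 10.82 to 11.15 in NEPs, 4.00 to 5.13 in GNPs, 8.79 to 9.08 in NSCs, 6.96 to 8.28 in NEP tumors and 7.94 to 8.06 in GNP tumors, with no marker under the array median in any group mean. Their part in the Kcnj10 difference was not tested. In RNA from many cells, fewer cells of a type and less RNA per cell cannot be told apart. Kcnj16, whose product Kir5.1 joins Kir4.1 in glia and kidney, read 2.90, 3.01, 2.71 and 3.23 on NEP arrays and 1.78, 1.71, 2.00 and 2.34 on GNP arrays. It was higher on every NEP array (log2 difference 1.00, SE 0.20, adjusted p = 3.05e-04), at levels near the array median. On tumor arrays Kcnj16 read 2.30 to 3.42 in NEP tumors and 2.30 to 2.48 in GNP tumors and was not called.

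Kcnj13, or Kir7.1, is known from the choroid plexus and the retinal pigment epithelium. Its values varied more within NEPs than those of any other inward rectifier tested, at 4.90, 4.94, 3.28 and 6.12 on arrays 1 to 4, against 2.40, 2.59, 2.56 and 3.07 in GNPs. NEP array 4 was highest and array 3 was only slightly above the highest GNP array, but the groups did not overlap (log2 difference 2.15, SE 0.42, adjusted p = 2.61e-04). NSCs read 3.48, 3.45 and 3.56, NEP tumors 3.00, 2.55, 4.09 and 3.17 and GNP tumors 4.03, 4.02, 3.41 and 4.13. The NSC difference of 1.31 (adjusted p = 0.0212) lost its call without NEP array 4 (0.88, adjusted p = 0.0666), without NSC array 1 (1.30, adjusted p = 0.0529) or without NSC array 2 (1.29, adjusted p = 0.0545). Another member known from the choroid plexus, the accessory subunit Kcne2, was likewise highest on NEP array 4 and lowest on array 3, at 3.82, 3.75, 3.34 and 5.52, against 2.01, 2.13, 2.23 and 2.89 in GNPs (log2 difference 1.79, SE 0.37, adjusted p = 3.92e-04). The choroid plexus transcript Ttr, which encodes transthyretin, read 13.05, 13.15, 12.66 and 13.37 in NEPs and 11.83, 11.61, 11.82 and 12.28 in GNPs. Aqp1, a water channel, and Kl read 3.35, 3.51, 2.40 and 3.84 and 3.00, 2.85, 2.15 and 3.37 in NEPs, like Ttr highest on array 4 and lowest on array 3. Foxj1, of ciliated ependymal cells, and Otx2 differed from this, at 2.94, 2.49, 4.37 and 3.70 and 4.59, 4.13, 8.45 and 7.40, highest on NEP array 3, where Kcnj13 and Kcne2 were lowest. The median of the 5 markers was 4.37 on NEP array 3 and 3.84 on array 4. Of 5 ependymal and choroid plexus markers, 4 were called higher and 1, Otx2, lower in NEPs, and their part in the values of Kcnj13 and Kcne2 was not tested.

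**Figure D2:**
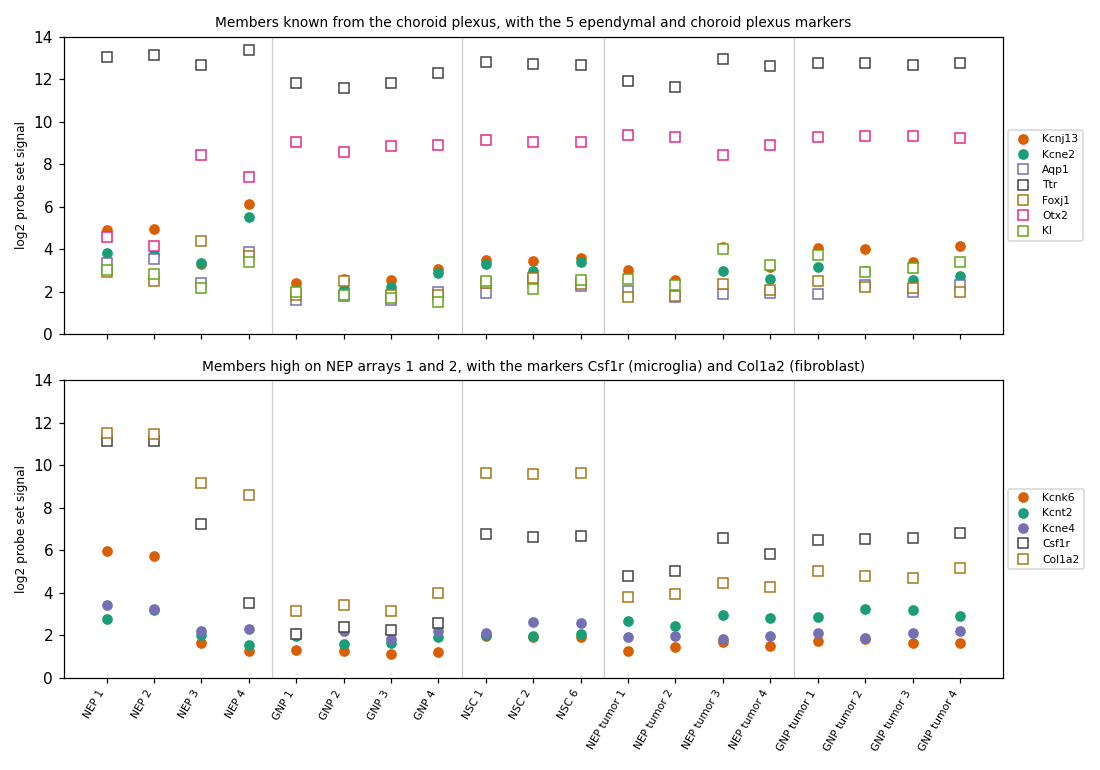
Log2 probe set signal on each of the 19 arrays, in array order by group; filled circles are potassium channel genes, open squares are markers of other cell types. In the upper panel Kcnj13 and Kcne2 are highest on NEP array 4, where Aqp1, Ttr and Kl are also highest within NEPs, while Foxj1 and Otx2 are highest within NEPs on array 3. In the lower panel Kcnk6, Kcnt2 and Kcne4 are highest within NEPs on arrays 1 and 2, where Csf1r and Col1a2 read 11.12 or more.

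The G protein-gated rectifiers went the other way. Kcnj3 encodes GIRK1, which slows firing when inhibitory receptors are active. It read 3.68, 3.44, 5.74 and 4.38 in NEPs and 7.52, 7.11, 7.30 and 7.75 in GNPs, so that every NEP array was below every GNP array, with NEP array 3 nearest to them. The difference was -3.11 (SE 0.34, adjusted p = 4.06e-07), and -2.36 with NEP arrays 3 and 4 only. NSC arrays read 6.69, 6.72 and 6.77, NEP tumor arrays 5.89, 5.67, 6.03 and 6.09 and GNP tumor arrays 5.20, 5.55, 5.04 and 5.32. The tumor groups did not overlap, yet the difference was not called (log2 difference 0.64, SE 0.34, adjusted p = 0.185) in the fit that shares 1 variance over all groups, NEPs included. With the 2 tumor groups fitted alone it was called (0.64, adjusted p = 0.00516).

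Kcnj6 encodes GIRK2, the channel altered in the weaver mouse, whose granule cells die during development. It read 1.99, 2.19, 2.39 and 2.19 in NEPs and 4.52, 5.02, 5.01 and 4.45 in GNPs, with the NEP mean under the array median (log2 difference -2.56, SE 0.14, adjusted p = 3.86e-11). NSC arrays read 3.60, 3.59 and 3.50. NEP tumors, at 3.60, 3.82, 3.58 and 4.11, lay above GNP tumors, at 3.32, 3.23, 3.32 and 3.25, on every array (log2 difference 0.49, SE 0.14, adjusted p = 0.0154). That tumor call was lost without NEP tumor array 4 (0.38, adjusted p = 0.0584). Kcnj11 encodes Kir6.2, the pore of the channel that closes on ATP, and read 7.56, 7.82, 7.83 and 7.54 in NEPs and 8.04, 8.26, 8.14 and 8.29 in GNPs, lower in the former by a small amount (log2 difference -0.50, SE 0.09, adjusted p = 7.99e-05). Abcc8, the regulatory subunit that assembles with it, was also lower in NEPs (log2 difference -1.79, SE 0.18, adjusted p = 1.89e-07). Its NEP values, 1.87 to 2.44, were under the array median.

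**Figure D3:**
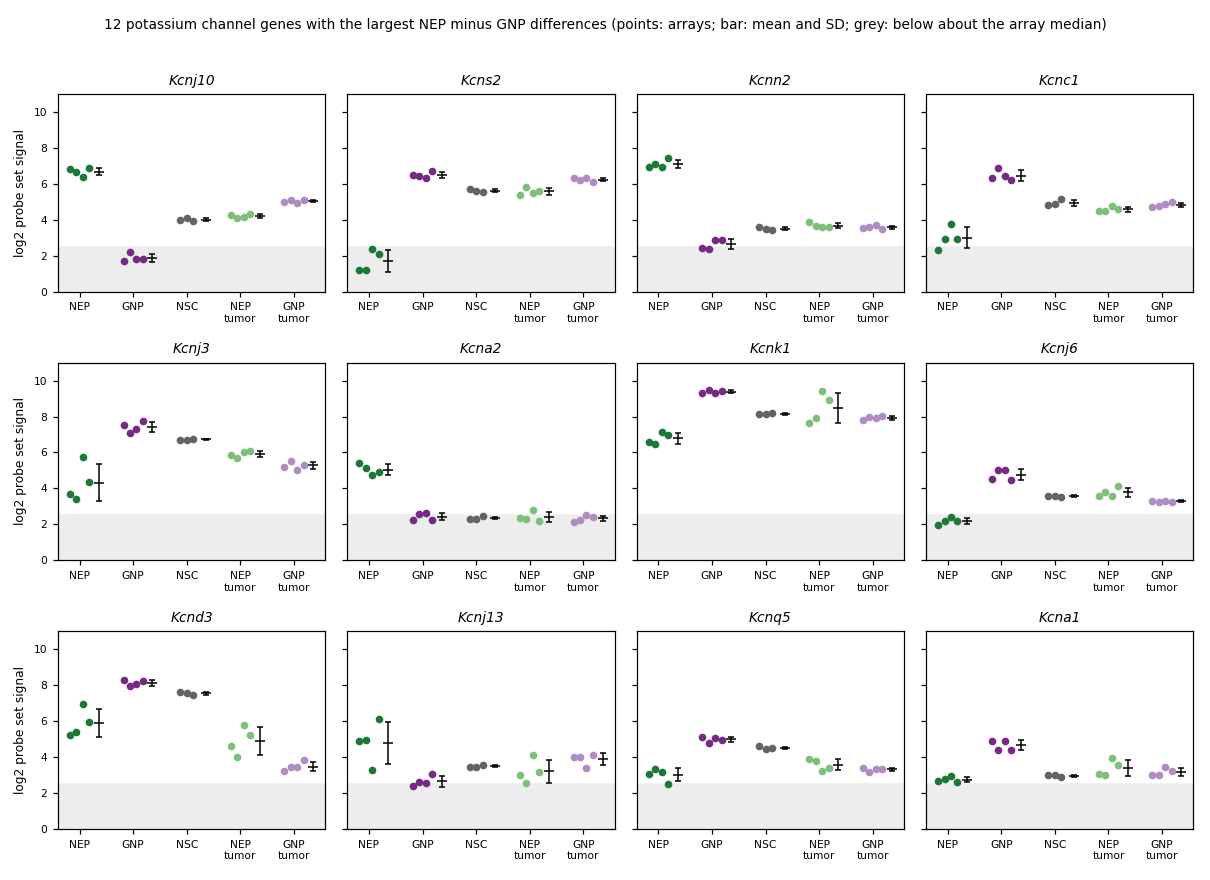
Log2 probe set signal of the 12 potassium channel genes with the largest called differences between NEPs and GNPs; points are arrays, horizontal bars with whiskers are group means and SD (n = 4, NSC n = 3), and the grey band lies below about the array median. The NEP and GNP points do not overlap in any of the 12 panels, whose genes were picked for that difference. The 2 tumor groups lie close together for most genes, and picking by the progenitor difference favours a smaller difference between tumors.

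Calcium- and sodium-activated channels had 3 of 6 genes higher in NEPs and 0 lower, where 29.6% and 39.9% of all genes were. The 3 were Kcnn2, Kcnt2 and Kcnu1. Kcnn2 encodes SK2, a small-conductance channel that shapes the firing of Purkinje cells. It read 6.91, 7.11, 6.94 and 7.42 in NEPs and 2.44, 2.37, 2.88 and 2.89 in GNPs. The NEP arrays lay well above all others and GNP arrays 1 and 2 under their array medians, so the fold is one of array signal. The difference was 4.45 (SE 0.13, adjusted p = 1.10e-14), or 21.8-fold. In NSCs it read 3.58, 3.49 and 3.41, in NEP tumors 3.88, 3.66, 3.57 and 3.56 and in GNP tumors 3.56, 3.58, 3.68 and 3.47. Kcnn2 was thus 3.60 higher in NEPs than in NSCs (adjusted p = 2.90e-12), NEP tumors differed from NEPs by -3.43 (SE 0.13, adjusted p = 4.24e-13), and the tumors differed from each other by 0.10 (adjusted p = 0.649), which was not called. Among the 5 tested genes of this family other than Kcnn2, none differed by 2-fold between NEPs and GNPs.

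Kcnn4 encodes the intermediate-conductance channel of lymphocytes, red cells and microglia. It was not called between progenitors (-0.25), with 2.51 to 2.76 in NEPs and 2.77 to 3.00 in GNPs. NEP tumor arrays read 3.96, 3.88, 2.84 and 3.45 and GNP tumor arrays 3.10, 3.04, 2.93 and 3.03. NEP tumor arrays 1 and 2 were high, array 3 lay below all GNP tumor arrays, and the groups overlapped. The call (log2 difference 0.51, SE 0.17, adjusted p = 0.0384) was lost when any of NEP tumor arrays 1, 2 or 4 or any GNP tumor array was left out, with values of 0.36, 0.39, 0.53, 0.53, 0.51, 0.47 and 0.51 in that order, and it was 0.12 with NEP tumor arrays 3 and 4 only. Microglia and macrophage markers had a median of 4.70, 4.89, 6.38 and 5.81 on NEP tumor arrays 1 to 4 and 6.47 to 6.73 in GNP tumors. Their part in the Kcnn4 values was not tested.

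Kcnma1 encodes the pore of the large-conductance BK channel and Kcnmb4 its neuronal beta subunit. Kcnmb4 read 7.15 to 7.96 in NEPs, 7.52 to 7.78 in GNPs, 6.33 to 6.91 in NEP tumors and 6.43 to 6.53 in GNP tumors. It was lower in NEP tumors than in NEPs (log2 difference -0.92, SE 0.16, adjusted p = 6.19e-05) and lower in GNP tumors than in GNPs (log2 difference -1.16, SE 0.16, adjusted p = 9.92e-06), while Kcnma1 was higher in both (0.65 and 0.71). Between tumors Kcnma1 was not called (-0.19), but was called at -0.44 without NEP tumor array 1 and at -0.51 with NEP tumor arrays 3 and 4 only. Its probe set with the largest variance gave the opposite direction there (0.68, adjusted p = 0.00317) and a called -0.50 between NEPs and GNPs. By that probe set Kcnma1 differed by 1.54 between NEP tumors and NEPs. Between GNP tumors and GNPs it differed by 0.36 (adjusted p = 0.0634), not called. Kcnt2, a sodium-activated channel, read 2.75, 3.16, 1.98 and 1.54 in NEPs. Only NEP arrays 1 and 2, which also carried the high microglia and fibroblast signal, were clearly above GNPs (1.56 to 1.95). Its call (log2 difference 0.60, SE 0.25, adjusted p = 0.0397) was lost without NEP array 1 (0.47), NEP array 2 (0.33), GNP array 2 (0.54) or GNP array 3 (0.56), and the difference fell to 0.00404 with NEP arrays 3 and 4 only. The part of the microglia and fibroblast signal in it was not tested. Kcnu1, a channel known from sperm, read 2.83 to 3.14 in NEP tumors and 2.44 to 2.67 in GNP tumors (0.44, called). Its means in NEPs, GNPs, NSCs and GNP tumors were under the array median.

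Of 17 voltage-gated pore-forming subunits, 10 were called lower in NEPs and 5 higher, where 39.9% and 29.6% of all genes were. Kcns2 encodes a subunit that forms no channel alone but modifies channels of the Kv2 class. It read 1.17, 1.19, 2.38 and 2.09 in NEPs and 6.48, 6.41, 6.31 and 6.69 in GNPs. All NEP values were under the array median, arrays 1 and 2 lowest, and the difference was -4.76 (SE 0.21, adjusted p = 2.85e-12). NSC arrays read 5.72, 5.58 and 5.54, NEP tumor arrays 5.40, 5.84, 5.46 and 5.60 and GNP tumor arrays 6.30, 6.19, 6.34 and 6.10. Kcns2 thus stood 3.86 higher in NEP tumors than in NEPs (SE 0.21, adjusted p = 4.91e-11), while GNP tumors differed from GNPs by -0.24, not called. NEP tumors lay below GNP tumors without overlap (log2 difference -0.66, SE 0.21, adjusted p = 0.031). That call was lost when any of NEP tumor arrays 1, 3 or 4 (-0.60, -0.62 and -0.67) or GNP tumor arrays 1, 2 or 3 (-0.64, -0.67 and -0.62) was left out.

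Kcnc1 encodes Kv3.1, which lets neurons fire at high rates and is abundant in granule cells. It read 2.33, 2.94, 3.75 and 2.92 in NEPs and 6.30, 6.86, 6.44 and 6.21 in GNPs, with no overlap (log2 difference -3.47, SE 0.21, adjusted p = 2.55e-10). NSC arrays read 4.81, 4.88 and 5.14, NEP tumor arrays 4.46, 4.47, 4.75 and 4.59 and GNP tumor arrays 4.70, 4.76, 4.87 and 4.98. NSCs and both tumor groups lay between the progenitors, close to each other. Against NSCs, NEPs were lower (-1.96) and GNPs higher (log2 difference 1.51, SE 0.23, adjusted p = 8.36e-05). The tumor difference of -0.26 was not called (adjusted p = 0.424). Markers of differentiating neurons, 9 listed and tested, were called lower in NEPs for 8 of 9, with a median from 6.42 to 8.81 on NEP arrays and 10.25 to 10.27 on GNP arrays, and their part in these differences was not tested.

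Of the 3 Kv4 genes, whose channels carry the A-type current that delays firing, Kcnd3 and Kcnd2 were lower in NEPs and Kcnd1 higher. Kcnd3, or Kv4.3, read 5.21, 5.39, 6.94 and 5.98 in NEPs, with array 3 highest, and 8.28, 7.94, 8.08 and 8.26 in GNPs (log2 difference -2.26, SE 0.35, adjusted p = 2.24e-05). NSC arrays read 7.62, 7.57 and 7.48. In NEP tumors it read 4.64, 4.01, 5.82 and 5.25 and in GNP tumors 3.20, 3.44, 3.43 and 3.82, so that NEP tumors were higher on every array, with arrays 3 and 4 highest (log2 difference 1.45, SE 0.35, adjusted p = 0.00637). With NEP tumor arrays 1 and 2 only, the difference was 0.85 (adjusted p = 0.103), which is not called. GNP tumors differed from GNPs by -4.67 (SE 0.35, adjusted p = 9.05e-09), a 25.4-fold lower signal. NEP tumors differed from NEPs by -0.95 (adjusted p = 0.0222), a call that was lost without NEP array 3 (-0.60), NEP tumor array 1 (-0.86) or NEP tumor array 2 (-0.65).

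Kcnd2, or Kv4.2, read 6.12, 6.35, 6.34 and 5.97 in NEPs and 7.50, 7.30, 7.52 and 8.05 in GNPs (log2 difference -1.40, SE 0.21, adjusted p = 1.47e-05). NSCs read 7.16, 7.03 and 6.84, NEP tumors 2.86, 2.81, 3.80 and 3.49 and GNP tumors 3.01, 3.17, 3.61 and 3.29. Every tumor array was below every progenitor and NSC array, by -2.96 for NEP tumors against NEPs and by -4.32 for GNP tumors against GNPs (both called, with the title sets differing as well), and the tumors did not differ by a called amount (-0.03). The NSC arrays lay between the NEP and GNP arrays. For each tumor against its progenitor, title set and group cannot be told apart. Kcnd1 was 0.58 higher in NEPs (adjusted p = 2.22e-05) at levels near the array median, with the GNP mean under it.

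**Figure D4:**
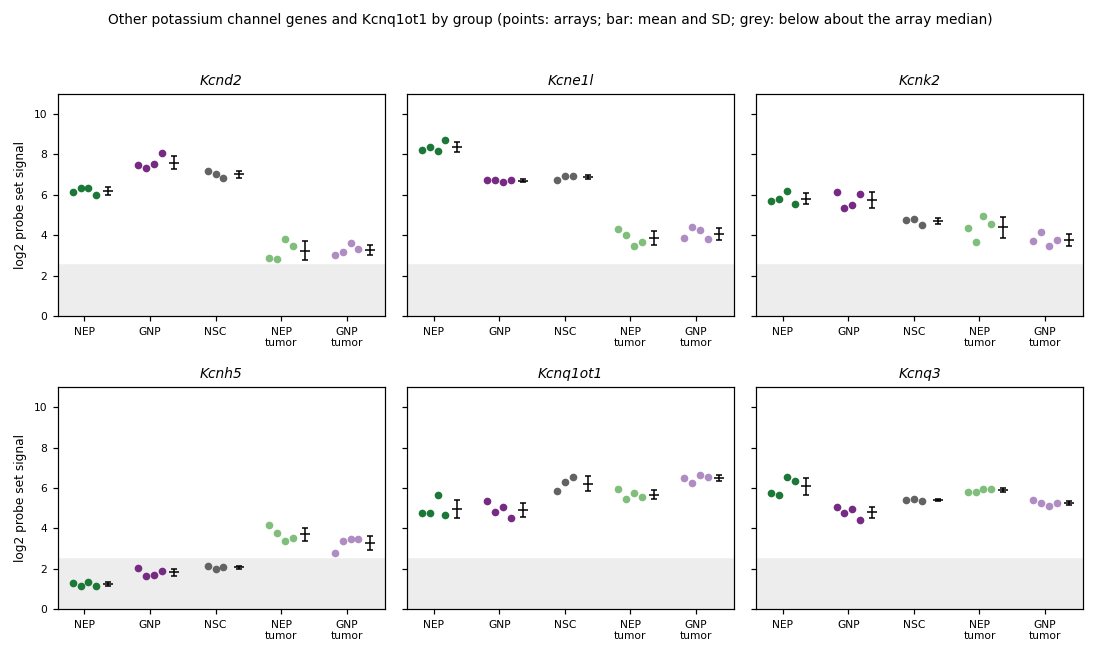
Log2 probe set signal of 6 further genes by group; points are arrays, bars are group means with SD (n = 4, NSC n = 3), and the grey band lies below about the array median. Kcnd2 and Kcne1l are lower on every tumor array than on every progenitor array, and Kcnh5 is above the array median only in the tumors.

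Kcna1 and Kcna2 encode Kv1.1 and Kv1.2, which often assemble together on axons and basket cell terminals, and they differed in opposite directions. Kcna2 read 5.41, 5.14, 4.72 and 4.92 in NEPs and 2.26, 2.56, 2.61 and 2.25 in GNPs, and its means in GNPs, NSCs and both tumors were under the array median. Only NEPs carried a clear signal (log2 difference 2.63, SE 0.15, adjusted p = 1.02e-10). In NSCs it read 2.30, 2.31 and 2.44, in NEP tumors 2.37, 2.32, 2.79 and 2.18 and in GNP tumors 2.15, 2.24, 2.52 and 2.39, and the NEP tumor difference from NEPs was -2.64 (SE 0.15, adjusted p = 9.47e-11). Kcna1 read 2.67, 2.79, 2.95 and 2.62 in NEPs and 4.92, 4.42, 4.92 and 4.41 in GNPs (log2 difference -1.91, SE 0.18, adjusted p = 1.07e-07), with 2.99, 3.00 and 2.89 in NSCs, 3.07, 3.00, 3.96 and 3.54 in NEP tumors and 2.99, 2.98, 3.43 and 3.23 in GNP tumors. The GNP arrays were the highest of all, by 1.71 over NSCs (SE 0.20, adjusted p = 6.30e-06), or 2.60 by the probe set with the largest variance.

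Kcnq5 and Kcnq3 encode subunits of the M-current, which damps repetitive firing, and also differed in opposite directions. Kcnq5 read 3.05, 3.37, 3.17 and 2.50 in NEPs and 5.12, 4.80, 5.07 and 4.96 in GNPs (log2 difference -1.97, SE 0.16, adjusted p = 1.25e-08), and 4.60, 4.48 and 4.49 in NSCs, 3.90, 3.76, 3.23 and 3.41 in NEP tumors and 3.42, 3.20, 3.32 and 3.34 in GNP tumors. Kcnq3 read 5.74, 5.67, 6.56 and 6.34 in NEPs, with arrays 3 and 4 highest, and 5.04, 4.73, 4.95 and 4.42 in GNPs (log2 difference 1.29, SE 0.17, adjusted p = 3.70e-06). NSC arrays read 5.40, 5.45 and 5.36. NEP tumors at 5.80, 5.81, 5.96 and 5.96 lay above GNP tumors at 5.40, 5.24, 5.12 and 5.26 on every array (log2 difference 0.63, SE 0.17, adjusted p = 0.0126), so Kcnq3 was called higher on the NEP side in progenitors and in tumors. The call in tumors was lost with NEP tumor arrays 1 and 2 only (0.55, adjusted p = 0.0884).

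The ether-a-go-go genes had low signal in the progenitors. Kcnh2 encodes the ERG channel of the heart and of neurons, and read 3.51, 3.37, 3.56 and 3.00 in NEPs, 3.60, 3.72, 3.51 and 4.08 in GNPs, 3.06, 3.22 and 3.33 in NSCs, 3.66, 3.49, 3.54 and 3.53 in NEP tumors and 4.20, 3.98, 4.27 and 4.62 in GNP tumors. GNP tumor arrays were highest and lay above all NEP tumor arrays (log2 difference -0.71, SE 0.15, adjusted p = 0.00232). The progenitor groups overlapped, and that call (log2 difference -0.37, SE 0.15, adjusted p = 0.0333) was lost without GNP array 2 (-0.37), GNP array 4 (-0.25), NEP array 2 (-0.37) or NEP array 4 (-0.25). Kcnh5 encodes EAG2, a channel described in medulloblastoma. It was under the array median in NEPs (1.15 to 1.33), GNPs (1.64 to 2.05) and NSCs (2.01 to 2.15), and read 4.15, 3.74, 3.36 and 3.53 in NEP tumors and 2.79, 3.37, 3.47 and 3.47 in GNP tumors. It was called higher in each tumor than in its progenitor (2.47 and 1.45). Between the tumors, the value of 0.42 was not called, and was called at 0.53 without NEP tumor array 3. Kcnh8 was higher in NEP tumors than in NEPs (1.76, adjusted p = 2.84e-07), but GNP tumors differed from GNPs by 0.25, not called. It was lower in NEPs than in GNPs (-1.10).

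The remaining pore-forming genes varied near the array median. Kcnv1, a silent modifier of Kv2 channels, reached the array median on the 4 NEP arrays alone, at 2.68 to 3.25 against 1.91 to 2.15 in GNPs. It thus passed the filter through NEPs and had to differ. Kcnc4 was called at 0.41 between NEPs and GNPs, with the GNP mean under the array median. Kcng2, another silent subunit, was called higher in both tumors than in their progenitors (1.00 and 0.74). Kcna7 differed by -0.22 between NEPs and GNPs and Kcnh3 by -0.15, the latter not called.

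Accessory subunits were split, with 4 of 8 higher and 3 lower in NEPs, where 29.6% and 39.9% of all genes were. Kcne1l, also called Kcne5, is a single-span subunit that dampens M-type and related channels. It read 8.23, 8.34, 8.15 and 8.70 in NEPs and 6.72, 6.72, 6.61 and 6.75 in GNPs (log2 difference 1.66, SE 0.17, adjusted p = 1.83e-07). NSCs read 6.75, 6.92 and 6.94, NEP tumors 4.29, 3.99, 3.46 and 3.68 and GNP tumors 3.84, 4.39, 4.25 and 3.80. All 8 tumor arrays were below all progenitor and NSC arrays, by -4.50 (SE 0.17, adjusted p = 3.13e-13) for NEP tumors against NEPs, a 22.7-fold lower signal, and by -2.63 (SE 0.17, adjusted p = 1.25e-09) for GNP tumors against GNPs. The tumors did not differ by a called amount (-0.21, adjusted p = 0.397).

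The cytoplasmic beta subunits of Kv1 channels were lower in NEPs. Kcnab2 read 3.22, 3.13, 3.35 and 3.08 in NEPs, 4.93, 5.09, 4.93 and 4.59 in GNPs (log2 difference -1.69, SE 0.14, adjusted p = 1.75e-08) and 4.11, 4.19 and 4.33 in NSCs. In NEP tumors it read 4.81, 5.04, 5.55 and 5.16 and in GNP tumors 4.63, 4.74, 4.31 and 4.40, the former higher on every array (log2 difference 0.62, SE 0.14, adjusted p = 0.0048). With NEP tumor arrays 1 and 2 only, that difference was 0.41 (adjusted p = 0.0599). Kcnab1 was -1.40 in NEPs relative to GNPs (adjusted p = 1.83e-05), with NEP arrays 1 and 2 at 2.58 and 2.57 and arrays 3 and 4 at 3.47 and 3.50. Kcnab3 stayed near the array median (-0.23), and its call was lost without GNP array 4 (-0.17).

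The calcium-binding subunits of Kv4 channels behaved differently from each other. Kcnip1 reached the array median on the 4 NEP arrays alone, at 3.14 to 3.56, and read 1.79 to 2.18 in GNPs, a background signal, so it passed the filter through NEPs and had to differ. Kcnip3, also known as a repressor of transcription, was not called between the progenitors, at 5.08, 5.01, 4.87 and 5.47 in NEPs, 4.96, 5.13, 5.04 and 4.58 in GNPs (0.18) and 5.04, 4.83 and 4.81 in NSCs. Its probe set with the largest variance gave a called difference of the opposite sign there (-0.58, adjusted p = 0.015). NEP tumor arrays read 5.19, 5.40, 4.66 and 5.05 and GNP tumor arrays 5.56, 5.53, 5.44 and 5.70, the latter all higher (log2 difference -0.48, SE 0.15, adjusted p = 0.0321). That call was lost without NEP tumor array 3 (-0.34), NEP tumor array 4 (-0.48), or GNP tumor array 1, 2 or 4 (-0.48, -0.49 and -0.44), and its probe set with the largest variance gave -0.04. Kcne4 read 3.42, 3.23, 2.18 and 2.30 in NEPs, high on arrays 1 and 2 alone. Its call against GNPs (log2 difference 0.70, SE 0.22, adjusted p = 0.00889) did not hold without those arrays (0.16, adjusted p = 0.329).

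Among the leak channels, Kcnk1 was the 1 of 4 called between progenitors, where 69.5% of all genes were called. It encodes TWIK1, found in neurons and astrocytes, and read 6.56, 6.47, 7.16 and 6.95 in NEPs and 9.32, 9.47, 9.31 and 9.44 in GNPs (log2 difference -2.60, SE 0.27, adjusted p = 2.99e-07), a 6.05-fold lower signal in NEPs without overlap. NSCs read 8.15, 8.12 and 8.21. NEP tumor arrays split, at 7.64, 7.94, 9.41 and 8.91, with arrays 3 and 4 near the GNP level, while GNP tumor arrays read 7.79, 7.95, 7.89 and 8.03. The tumor groups overlapped, and the difference was not called (log2 difference 0.56, SE 0.27, adjusted p = 0.155) but was 0.84 (adjusted p = 0.0232) without NEP tumor array 1. Kcnk10, the mechanosensitive TREK2, read 3.16, 3.22, 4.41 and 5.13 in NEPs and 3.29, 2.97, 3.36 and 3.62 in GNPs. NEP arrays 3 and 4 were high and arrays 1 and 2 lay among the GNPs. The difference of 0.67 was not called, but was called without NEP array 1 (0.94) or NEP array 2 (0.93). By its other probe set, which reached the array median on 4 arrays, Kcnk10 differed by -0.36, the opposite direction. Its relative Kcnk2, or TREK1, read 5.53 to 6.18 in NEPs and 5.34 to 6.16 in GNPs and was lower in both tumors than in their progenitors (-1.41 and -1.98). Between tumors it was not called (0.62), but was without NEP tumor array 2 (0.86, adjusted p = 0.011). Kcnk13, known from microglia, read 3.00, 2.60, 2.02 and 2.03 in NEPs, highest on array 1. It did not pass the test in any comparison, but with NEP arrays 3 and 4 only it was called lower in NEPs than in GNPs (-0.38, adjusted p = 0.0115) and in the interaction (0.43), with all 5 group means under the array median.

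Of the non-coding RNAs, Kcnq1ot1 is the long transcript that runs antisense to Kcnq1 and silences neighbouring genes on the paternal chromosome. It read 4.78, 4.73, 5.64 and 4.65 in NEPs, with array 3 apart, and 5.33, 4.81, 5.05 and 4.51 in GNPs, and the groups overlapped (0.03, not called). NSCs read 5.82, 6.29 and 6.55, NEP tumors 5.94, 5.45, 5.76 and 5.54 and GNP tumors 6.51, 6.26, 6.65 and 6.52. GNP tumors were higher than NEP tumors on every array (log2 difference -0.82, SE 0.22, adjusted p = 0.0121), and with NEP tumor arrays 1 and 2 only the difference was -0.79 (adjusted p = 0.0588). GNPs differed from NSCs by -1.30 (SE 0.23, adjusted p = 4.12e-04). Kcnmb4os2, on the strand opposite Kcnmb4, differed by -0.57 between NEPs and GNPs. Without NEP arrays 1 and 2 it was -0.22, no longer called. Which strand the labelled target represents was not tested, so signal of overlapping transcripts cannot be assigned to a strand.

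Between the tumors of the Nestin and the Math1 driver the differences were smaller. NEP tumors were higher for 6 members (Kcnd3, Kcnq3, Kcnab2, Kcnn4, Kcnj6 and Kcnu1) and lower for 5 (Kcnj10, Kcnq1ot1, Kcnh2, Kcns2 and Kcnip3), with 32 not called. Over all genes 15.5% were called higher and 8.10% lower. The members' median difference was 0.05, as over all genes, and only Kcnd3 differed by at least 2-fold. The median size of the difference, regardless of sign, was 0.28 in tumors and 0.96 in progenitors for the members, against 0.19 and 0.47 over all genes tested.

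**Figure D5:**
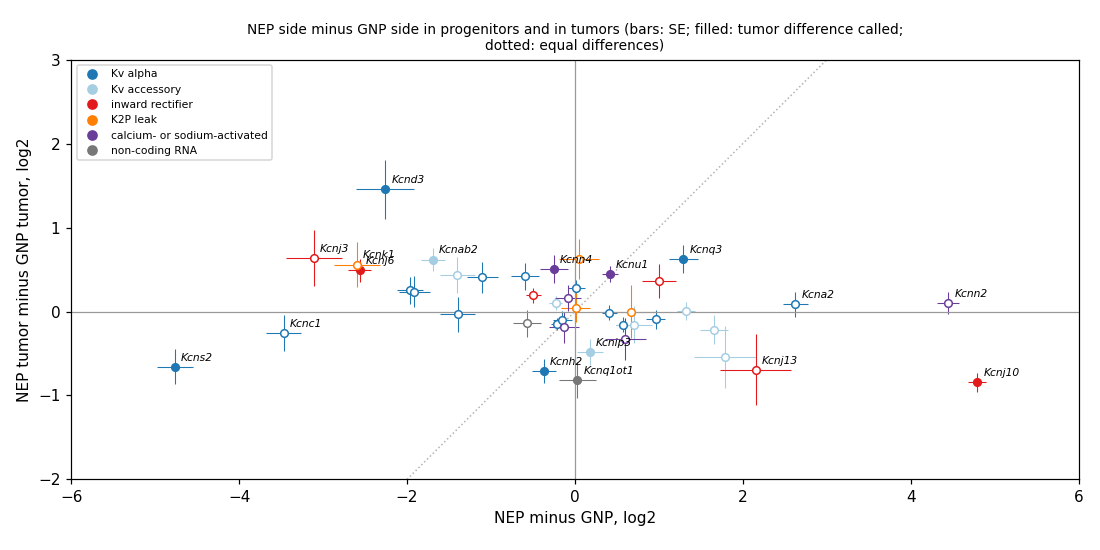
Difference between NEP and GNP tumors (vertical, log2) against the difference between NEPs and GNPs (horizontal, log2) for the 43 tested genes, coloured by family; bars are SE, filled points are called in the tumors, and the dotted line marks equal differences. Most points lie within 1 of zero on the vertical axis whatever their horizontal position, and Kcnd3 is the 1 member beyond it.

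Whether the difference changed from progenitors to tumors was tested directly, as the tumor difference minus the progenitor difference, in which an offset common to both groups of a title set cancels. Of the 43 members, 16 had a higher and 15 a lower difference in tumors, against 36.7% and 25.2% of all genes. The 5 largest were Kcnj10 at -5.64 (SE 0.16, adjusted p = 4.56e-14), Kcnn2 at -4.35 (SE 0.18, adjusted p = 3.79e-12), Kcns2 at 4.11 (SE 0.30, adjusted p = 4.57e-09), Kcnj3 at 3.75 (SE 0.47, adjusted p = 4.43e-06) and Kcnd3 at 3.71 (SE 0.49, adjusted p = 7.13e-06). For Kcnj10, Kcnd3, Kcnj6 and Kcnab2 the difference was called with one sign in progenitors and the opposite sign in tumors. Kcns2 kept its direction at a smaller size, and with all probe sets averaged the interactions of Kcns2 and Kcnd3 were 2.50 and 1.23. The interaction of Kcnip3 (-0.66) was 0.55 by its probe set with the largest variance.

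Against NSCs, NEPs were higher for 14 members and lower for 14 (30.9% and 27.6% of all genes), and GNPs were higher for 10 and lower for 4 (23.2% and 13.1%). These comparisons share the NSC arrays. The largest in NEPs were Kcns2 at -3.90 (SE 0.23, adjusted p = 3.12e-10), Kcnn2 at 3.60 (SE 0.14, adjusted p = 2.90e-12), Kcna2 at 2.70 (SE 0.16, adjusted p = 4.84e-10) and Kcnj10 at 2.68 (SE 0.12, adjusted p = 1.35e-11). The largest in GNPs were Kcnj10 at -2.11 (SE 0.12, adjusted p = 1.32e-09), Kcna1, Kcnc1 and Kcnq1ot1. Kcns2, Kcnc1, Kcnj3, Kcnd3, Kcnq5 and Kcnk1 in NSCs lay between NEPs and GNPs. Kcna1 overlapped between NEPs and NSCs and was not called there (-0.20). With all probe sets averaged, Kcns2 and Kcna2 differed by -2.24 and 1.30 between NEPs and NSCs, and Kcnc1 by 0.86 between GNPs and NSCs. The median of the 6 neural stem cell markers ranged over arrays from 6.76 to 7.13 in NSCs and from 9.96 to 10.44 in NEPs.

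Each tumor was also set against the progenitor of the same driver. NEP tumors were higher than NEPs for 16 members and lower for 17 (36.2% and 32.6% of all genes), and GNP tumors were higher than GNPs for 12 and lower for 16 (18.5% and 31.4%). The members with the largest differences were Kcne1l, Kcns2, Kcnn2 and Kcnd2 in the former and Kcnd3, Kcnd2, Kcnj10 and Kcne1l in the latter. With all probe sets averaged, Kcnd2 differed by -1.37 and -2.80, Kcns2 by 2.44 in NEP tumors and Kcnd3 by -1.53 in GNP tumors. Kcnj10 was 3.16 higher in GNP tumors than in GNPs (SE 0.11, adjusted p = 7.59e-13), where the Bergmann glia and astrocyte median was 7.94 to 8.06 against 4.00 to 5.13.

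Other genes that handle potassium were taken from a list of 34, of which 27 were on the array and 22 were tested: partners and clustering proteins of the channels, HCN channels, the sodium-potassium pump and potassium-chloride cotransporters. Between NEPs and GNPs, 11 of 22 were higher and 7 lower, where 29.6% and 39.9% of all genes were. Cntn2, which gathers Kv1 channels on axons, read 3.06, 3.18, 7.77 and 6.51 in NEPs and 10.19, 10.15, 10.14 and 10.10 in GNPs (log2 difference -5.01, SE 0.73, adjusted p = 1.23e-05), with NEP arrays 1 and 2 lowest. Atp1b2, the glial beta subunit of the pump, read 10.29, 10.44, 9.68 and 9.82 against 5.29, 5.36, 5.36 and 5.23 (log2 difference 4.75, SE 0.15, adjusted p = 3.21e-14), and Atp1b1 10.35, 10.47, 10.51 and 10.79 against 6.14, 5.57, 6.06 and 6.32 (log2 difference 4.51, SE 0.19, adjusted p = 1.07e-12). Dlg2, a scaffold that binds Kv1 channels, read 2.23, 2.05, 2.02 and 1.89 in NEPs, under the array median, and 5.59, 5.72, 5.58 and 5.23 in GNPs (log2 difference -3.49, SE 0.13, adjusted p = 4.30e-13). In NEP tumors 7 were higher and 2 lower (15.5% and 8.10% of all genes), led by Dlg2 at 1.70 (SE 0.13, adjusted p = 2.83e-07), Cntnap2 at 0.65, Slc12a5 at 0.56 and Tmem38a at 0.55. The GNP tumor arrays of Dlg2, at 1.48 to 1.77, were under the array median. Dlg2, like Kcnd3, was thus called lower in NEPs and higher in NEP tumors.

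The 40 genes that were not tested held no broad signal: 33 reached the array median on 0 arrays and 2, Kcnj9 and Kcnk3, on 1. Just outside the threshold, with 2 arrays, were Kcna6, Kcnc2, Kcnj12, Kcnk6 and Kcnn1, and just inside, with 3, were Kcne4 and Kcnk13. Kcnk6 stands out among them. It read 5.97 and 5.71 on NEP arrays 1 and 2, 1.64 and 1.23 on NEP arrays 3 and 4, and no higher than 1.97 on any array but the first 2. On NEP arrays 1 and 2 Csf1r, the receptor that marks microglia and macrophages, read 11.16 and 11.12, against 7.22 and 3.51 on arrays 3 and 4. Col1a2, a collagen of fibroblasts, read 11.50 and 11.48 against 9.13 and 8.59. The median of 5 oligodendrocyte lineage markers was also higher on arrays 1 and 2, at 10.28 and 10.37 against 7.28 and 7.06. So was that of 6 endothelial markers, at 5.67 and 5.56 against 3.27 and 4.19. The part of any of these cell types in the Kcnk6 values was not tested. Of the untested members other than Kcnk6, the highest value on any array was 2.96, for Kcnn1 on GNP array 4.

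Several genes had more than 1 probe set. Among members called between NEPs and GNPs, 9 had other probe sets with signal, and 14 of 14 of these gave the same direction. In the interaction 16 of 17 did, with Kcnip3 opposite, and in NEP tumors against NEPs 17 of 18, with Kcnk10 opposite. Between NEPs and GNPs the probe set of Kcnip3 with the largest variance was called at -0.58, opposite to the brightest. Averaging all of a gene's probe sets instead of taking the brightest moved the NEP against GNP difference of Kcns2 to -2.60, of Kcnc1 to -1.85, of Kcna2 to 1.29, of Kcnj6 to -1.12, of Kcnd3 to -0.86 and of Kcnq5 to -1.0, and each kept its call. In the tumors it moved Kcnd3 to 0.37, Kcnab2 to 0.35 and Kcnq1ot1 to -0.49, still called, and Kcns2 to -0.10, Kcnj6 to 0.19 and Kcnip3 to -0.26, not called.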

How the data were processed

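The members and the lists used here were chosen with earlier results of these data known. Per the labels' protocols, 100 ng of Trizol-extracted total RNA was amplified with a whole-transcript kit and biotin labelled. The submitters' processing notes name RMA and Affymetrix Expression Console, without version, genome build or log base, as what the authors used. The deposited values were taken as log2, which was checked on hybridisation spike-ins (Cre minus BioB, mean 5.41, range 5.04 to 5.78). Poly-A spike-ins averaged 8.69 ± 0.26 (SD over 8 arrays of the first title set) and 6.50 ± 0.27 (SD over 11 arrays of the second). None of the 171 array pairs held identical values, and the number of arrays limits the precision.

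Of 45101 probe sets, 64 were controls, 34945 carried 1 gene symbol in the platform annotation, 932 several and 9160 none; 34741 matched the RefSeq mouse gene table by gene ID. For each gene the brightest probe set by mean was kept, and it was tested where it reached the array median on 3 or more arrays. Differences came from limma 3.58.1 (lmFit and eBayes, 5 group means, two-sided) in R 4.3.3, adjusted by Benjamini-Hochberg over 12148 genes, in 7 comparisons, and the fit was tested on simulated data. Genes given by array were the called members with the largest differences (12 between progenitors, 10 between tumors, 5 in the interaction and 4 in each comparison across title sets); family examples, markers and single genes with a marked array pattern were added, some after their values were seen. 1 gene with the prefix is not reported here. Alternatives were another normalization, probe set rule, filter, variance model and replicate block, each array left out in turn, and the NEP and NEP tumor arrays in pairs.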

Additional observations from a re-analysis of the deposited data

Results flagged for a closer look

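The interaction itself was called (limma, adjusted p below 0.05) for 31 of the 43 tested members (72.1%) and for 61.9% of all 12148 genes. In these 31 members the NEP side minus GNP side difference changed between progenitors and tumors. For Kcnip1 and Kcnv1, which passed the filter through the 4 NEP arrays alone, the progenitor difference had to be present. Their interaction values therefore carry no support of their own. The change, on the log2 scale, was upward in tumors for 16 genes: Kcns2 4.11, Kcnj3 3.75, Kcnd3 3.71, Kcnc1 3.21, Kcnk1 3.16, Kcnj6 3.06, Kcnab2 2.31, Kcnq5 2.22, Kcna1 2.15, Kcnab1 1.84, Kcnh8 1.51, Kcnd2 1.36, Kcnh5 1.01, Kcnn4 0.76, Kcnj11 0.69 and Kcnab3 0.33. It was downward for 15 genes: Kcnj10 -5.64, Kcnn2 -4.35, Kcnj13 -2.85, Kcna2 -2.54, Kcne2 -2.34, Kcne1l -1.87, Kcnip1 -1.32, Kcnv1 -1.06, Kcnt2 -0.93, Kcne4 -0.86, Kcnq1ot1 -0.84, Kcnd1 -0.73, Kcnq3 -0.67, Kcnip3 -0.66 and Kcnc4 -0.42. The call was lost for Kcnq1ot1 (-0.71) and Kcnq3 (-0.54) without GNP array 4, for Kcne4 without GNP array 3 (-0.77) or NEP array 2 (-0.71), and for Kcnt2 without any 1 of 7 arrays. With all probe sets averaged, Kcnq3 (-0.18) and Kcnip3 (-0.06) were not called.

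Among the 20 members chosen for the largest differences, 80 groups of 4 arrays were examined for an array far from the other 3 by Dixon's critical value of the gap over the range, and 3 had one, where chance gives about 1 in 20. Kcnj10 read 2.22 on GNP array 2, with the nearest array at 1.80, both under the array median. Kcnj13 read 3.41 on GNP tumor array 3, below the nearest at 4.02. Kcnq1ot1 read 5.64 on NEP array 3, above the nearest at 4.78.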

How the results depend on the processing

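The 20 members chosen for the largest differences had 43 values in the comparisons that chose them and 755 alternative values: 718 kept direction and call, 37, all in NEP tumor against GNP tumor, lost the call, and 0 reversed. Over all 43 tested members and 7 comparisons, alternatives ended a call 149 times, made one 88 times and turned the direction of a value called on either side 9 times, for Kcnip3, Kcnma1 and Kcnk13. With the filter at the 75th percentile, which left 14 members to test, the counts higher and lower were 4 and 7 for NEP against GNP, 2 and 3 for the tumors, 7 and 5 for the interaction, 5 and 8 for NEP against NSC, 6 and 7 for NEP tumor against NEP and 4 and 9 for GNP tumor against GNP, with 5 higher for GNP against NSC. Members called lower in NEP tumors numbered 3 with all probe sets averaged and 2 with NEP tumor arrays 1 and 2 only. Fitting only the groups compared called 17 members higher in GNPs than in NSCs. Leaving out 1 array gave 3 to 5 members lower in NEP tumors, the 3 without NEP tumor array 3 or 4 or GNP tumor array 1 or 2. The cause was not tested, apart from the fewer genes tested under the filter.

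Same-numbered arrays were not shown to pair: their deviations correlated between -0.16 and 0.07 for NEP with GNP and between -0.04 and 0.05 for the tumors. With the replicate number as a block, 32 members were called for NEP against GNP (31 of the 33), 7 for the tumors (7 of the 11, 3 of them lower in NEP tumors) and 28 for the interaction (28 of the 31). The block was not fitted across title sets, where numbers are nested in the set. The filter on array signal left 40 members without a test, Kcnk6 among them despite its signal on NEP arrays 1 and 2.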
